A study of Mus musculus with 9 samples.

Results

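The genes described here are the 8 components of the classical complement cascade and its C3 hub that were taken by gene symbol from the deposited mouse gene table: C1qa, C1qb, C1qc, C1ra, C1s1, C2, C3 and C4b. All 8 were found among the 18474 genes of the table, and all 8 were among the 14752 genes that passed the filter on low counts. RNA was sequenced from the hippocampus of wild type mice in 3 groups of 3 mice, 1 library per mouse, 30 days after treatment. The sham group had control surgery, the KA group an injection of KA, taken to be the excitotoxin kainic acid, which acts on glutamate receptors and is used to make mice epileptic, and the KA+NBP group KA with NBP, taken to be butylphthalide, which the series' title names. There was no group with NBP and no KA. Dose, strain, age and sex are not given in the sources used here. The study's title names complement-related pathways, the blood-brain barrier and cognition in epileptic mice as its question.

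Complement is a set of proteins that tag surfaces and recruit phagocytes. In the classical pathway the C1q molecule, built from the products of C1qa, C1qb and C1qc, binds a target and activates the serine proteases C1r and C1s. C1s then cleaves C4 and C2, whose fragments form the convertase that cleaves C3, and C3 fragments on the target are read by phagocyte receptors. In brain, C1q is known mainly as a product of microglia, C3 and C4 as products of reactive astrocytes among others, and the pathway is known for marking synapses for removal by microglia.

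The C1q chains are encoded side by side on the minus strand of mouse chromosome 4, within 18719 bases (GRCm39, chr4:136607437-136626155, in the order C1qb, C1qc, C1qa). C1ra and C1s1 are neighbours on chromosome 6, at chr6:124489580-124500399 and chr6:124507303-124519340. C4b (chr17:34947249-34962876) and C2 (chr17:35081578-35101076) lie near each other on chromosome 17, and C3 (chr17:57510967-57535136) lies farther along the same chromosome. None of these spans overlapped another of them, and overlap with other genes of the table was not examined.

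Of the 8 genes, 5 had an entry in the RefSeq promoter table (GRCm38.p6, an older build than that of the deposited coordinates). The 250 bases before the annotated start are shown 5′ to 3′ for a pair of C1q chains, since their levels ran close to parallel over the libraries, and for C3, which had the largest fold change in KA. Capitals mark matches, on either strand, to one of 4 motifs searched: the PU.1 core GAGGAA, STAT TTCNNNGAA, C/EBP TTGCNNAA and the interferon-stimulated response element. The windows are chr4:136886201-136886450, chr4:136892915-136893164 and chr17:57228137-57228386, all on the minus strand.
C1qb promoter: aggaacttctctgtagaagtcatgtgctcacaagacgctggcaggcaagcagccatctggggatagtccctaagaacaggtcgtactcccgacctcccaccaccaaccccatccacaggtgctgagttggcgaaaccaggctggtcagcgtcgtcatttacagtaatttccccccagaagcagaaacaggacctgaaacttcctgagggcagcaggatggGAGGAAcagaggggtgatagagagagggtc
C1qc promoter: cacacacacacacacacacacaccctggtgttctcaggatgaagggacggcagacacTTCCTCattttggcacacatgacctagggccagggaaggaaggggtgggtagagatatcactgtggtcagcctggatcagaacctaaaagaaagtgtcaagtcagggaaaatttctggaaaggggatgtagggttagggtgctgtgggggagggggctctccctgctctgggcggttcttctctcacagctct
C3 promoter: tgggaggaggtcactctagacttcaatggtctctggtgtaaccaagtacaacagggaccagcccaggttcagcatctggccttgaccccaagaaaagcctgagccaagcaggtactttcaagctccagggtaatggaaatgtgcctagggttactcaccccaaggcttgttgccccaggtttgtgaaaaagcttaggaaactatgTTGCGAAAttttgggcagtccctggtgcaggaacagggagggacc
The C1qb window held the PU.1 core 30 to 25 bases before the start, and the C1qc window held it on the reverse strand, 193 to 188 bases before the start. The C3 window held a C/EBP match 45 to 38 bases before the start. PU.1 is a transcription factor of myeloid cells, and C/EBP factors act in acute inflammatory transcription. Of 32851 promoter windows of the same length, 23.3% held the PU.1 core, 9.56% the C/EBP motif, 7.02% the STAT motif and 2.98% the interferon-stimulated response element, so such matches are common and are given as a description of sequence only. The C1ra window held none of the 4 motifs, and 1 of the 2 C1s1 windows held a C/EBP match, 242 to 235 bases before the start.

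The libraries held 15699251 to 16374637 estimated counts over genes, and a count of 3, the most that a count of 0 allows, was worth 0.183 to 0.191 CPM, counts scaled to the library total. KA+NBP replicate 2 stood apart from the other libraries of its group. On the first principal component of log2 CPM, which held 72.2% of the variance, the sham libraries lay between -40.4 and -29.6, the KA libraries between 52.1 and 61.1, and KA+NBP replicates 1, 2 and 3 at -42.4, 25.8 and -45.0. That library also had a summed level of 8 choroid plexus markers of 2617 TPM, that is transcripts scaled to length and to a fixed total, against 22.3 to 102 TPM in the other libraries. For the 8 genes, the values without this library are given beside the results, and for the other lists where their counts differ by much, a choice made with these values known. In this bulk tissue, fewer cells of a type and less RNA per cell cannot be told apart.

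All 8 genes lay higher in every KA library than in any sham library, and 6 of them rose past the test in KA: the C1q chains, C1ra, C4b and C3. A gene was called where its p from edgeR's quasi-likelihood test, adjusted by Benjamini-Hochberg over all tested genes, was under 0.05, and 19.0% of those genes were called higher in KA. Groups with no overlap, KA above sham, were found for 29.3% of all tested genes. The median log2 fold change of the 8 genes, KA against sham, was 2.86, and that of all tested genes 0.01. No member was called lower, where 14.6% of all tested genes were.

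C1qa stood at 96.9, 145 and 129 TPM in sham replicates 1 to 3, at 1018, 971 and 967 with KA, and at 101, 381 and 137 in KA+NBP. C1qb stood at 99.0, 127 and 135 TPM in sham, 889, 847 and 882 with KA, and 94.6, 340 and 158 in KA+NBP. C1qc stood at 113, 149 and 171 TPM in sham, 913, 956 and 959 with KA, and 110, 378 and 141 in KA+NBP. The KA libraries were high and close to each other for each chain, the sham libraries low, and KA+NBP replicate 2 lay between the groups while replicates 1 and 3 lay in or near the sham range. C1qa rose from 124 ± 24.6 to 985 ± 28.0 TPM (SD, n = 3), a log2 fold change of 3.07 (SE 0.42, edgeR adjusted p = 0.00186). C1qb rose by a log2 fold change of 2.93 (SE 0.38, edgeR adjusted p = 0.00153) and C1qc by 2.78 (SE 0.40, edgeR adjusted p = 0.00207). The chains together made up 0.0309 to 0.0435% of all TPM in sham and 0.277 to 0.282% in KA.

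The proteases that C1q activates were expressed at far lower levels. C1ra, which encodes C1r, stood at 2.67, 2.88 and 5.50 TPM in sham, 14.3, 16.7 and 14.8 with KA, and 2.95, 8.56 and 2.90 in KA+NBP. C1s1, which encodes C1s, stood at 1.35, 1.90 and 3.70 TPM in sham, 6.77, 5.82 and 4.61 with KA, and 1.24, 5.00 and 1.86 in KA+NBP. In both genes sham replicate 3 was the highest sham library and still lay below every KA library. C1ra rose in KA by a log2 fold change of 2.13 (SE 0.42, edgeR adjusted p = 0.00593). For C1s1 the log2 fold change was 1.38 (95% interval 0.27 to 2.50), and its edgeR adjusted p of 0.0578 missed the threshold, while it was 0.00663 without KA+NBP replicate 2, whose spread enters the shared estimate of error.

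C4b encodes the C4 chain that C1s cleaves. It stood at 34.0, 36.6 and 30.2 TPM in sham, 300, 305 and 293 with KA, and 23.8, 197 and 32.4 in KA+NBP, so that the KA libraries lay within a narrow band far above sham. It rose by a log2 fold change of 3.23 (SE 0.69, edgeR adjusted p = 0.0081). C2, the other component of the classical convertase, was the lowest of the 8 genes in sham and KA, at 0.850, 0.850 and 2.43 TPM in sham, 6.70, 5.62 and 2.60 with KA, and 0.720, 5.08 and 0.390 in KA+NBP. These rest on 13, 13 and 37 counts in sham, 113, 92 and 43 with KA, and 11, 77 and 6 in KA+NBP. The lowest KA library was just above the highest sham library. The log2 fold change of C2 was 1.92 (95% interval 0.07 to 3.78, edgeR adjusted p = 0.10), and its adjusted p was 0.00661 without KA+NBP replicate 2.

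C3, on which the pathways of activation converge, had the largest fold change of the 8 genes in KA and the largest fitted SE over the 9 libraries. It stood at 1.05, 4.64 and 1.12 TPM in sham, 92.2, 59.9 and 53.6 with KA, and 1.22, 32.8 and 0.420 in KA+NBP. Sham replicate 2 was high for its group, at 133 counts against 33 and 35, and every KA library lay above it. C3 rose by a log2 fold change of 4.90 (SE 1.27, 95% interval 2.03 to 7.78, edgeR adjusted p = 0.0182). Leaving out sham replicate 1 (edgeR adjusted p = 0.0743) or sham replicate 3 (0.0745) ended this call. Without KA+NBP replicate 2 all 8 genes were called higher in KA, among 24.8% of all genes tested in that fit.

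**Figure D1:**
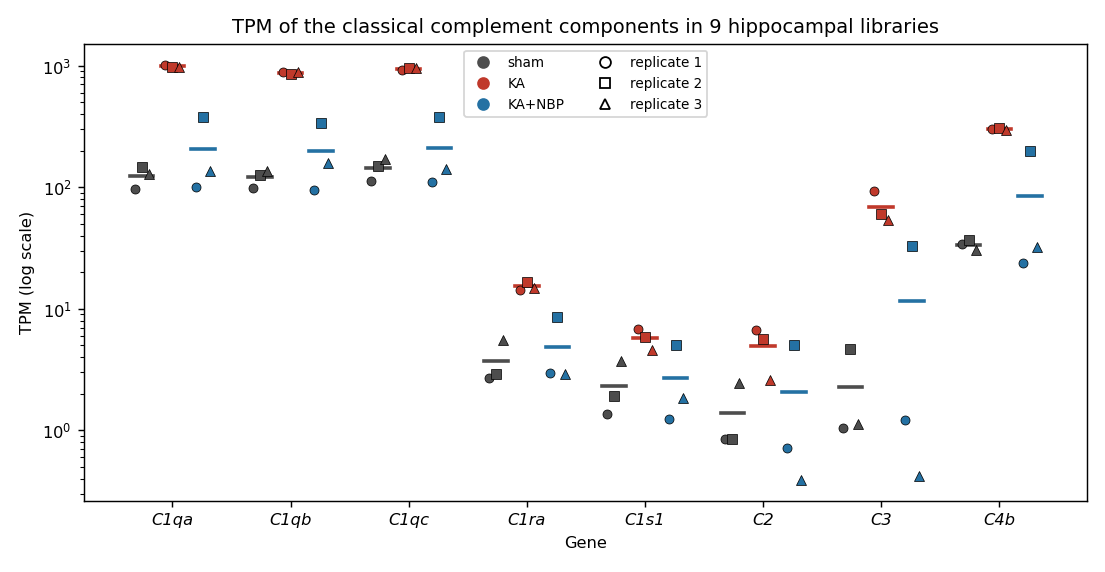
Level of each of the 8 genes in TPM (log axis) in every library, by group, with 1 point per library, its shape giving the replicate number, and a bar at the group mean. KA libraries lie above all sham libraries in each panel, and KA+NBP replicate 2 lies above the other KA+NBP libraries, by the widest margin for C3 (32.8 TPM against 1.22 and 0.420).

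By CPM, all KA+NBP libraries lay below all KA libraries for 7 of the 8 genes, C2 being the exception, and 4 genes fell past the test: the C1q chains and C1ra. Groups with no overlap, KA+NBP below KA, were found for 20.4% of all tested genes, and 12.7% were called lower by edgeR. The median log2 fold change of the 8 genes, KA+NBP against KA, was -2.08, and that of all tested genes -0.01. The KA libraries are shared with the comparison of KA with sham, so the values of both comparisons are not independent.

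C1qa fell to 206 ± 152 TPM (SD, n = 3) in KA+NBP, a log2 fold change of -2.34 (SE 0.41, edgeR adjusted p = 0.00673). C1qb had a log2 fold change of -2.23 (SE 0.36, edgeR adjusted p = 0.00551) and C1qc of -2.25 (SE 0.39, edgeR adjusted p = 0.00639). C1ra had one of -1.76 (SE 0.41, edgeR adjusted p = 0.0175), and this call was lost without KA+NBP replicate 1 (0.0629) or replicate 3 (0.0547). The SD of each C1q chain in KA+NBP was set by replicate 2, which held 2.16 to 3.78 times the TPM of the others of its group.

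C1s1, C2, C3 and C4b did not pass in the 9 libraries with edgeR. On log2(TPM + 1) limma called 6 members lower, C3 (limma adjusted p = 0.0242) and C4b (0.0209) among them. In either direction limma called 4158 of the 14752 tested genes in this comparison, where edgeR called 3355. For C1s1 the gap between groups was a matter of 1 count, 84 in KA+NBP replicate 2 against 85 in the lowest KA library, and by TPM the groups overlapped. C4b had a log2 fold change of -1.93 (95% interval -3.39 to -0.47, edgeR adjusted p = 0.0591), and C3 of -2.56 (95% interval -5.01 to -0.12, edgeR adjusted p = 0.117). C1s1 had a log2 fold change of -1.17 (95% interval -2.27 to -0.06, edgeR adjusted p = 0.114) and C2 of -1.36 (95% interval -3.15 to 0.42, edgeR adjusted p = 0.239). These intervals reach from changes near 0 to large ones, so the missed threshold does not show equal levels. Without KA+NBP replicate 2 all 8 genes were called lower, among 23.6% of all genes tested in that fit, with a median of -3.03. C3 then had a log2 fold change of -6.30 (edgeR adjusted p = 3.17e-05), C4b of -3.47 (3.9e-07), C2 of -3.20 (0.00223) and C1s1 of -1.91 (0.00352). The changes of the C1q chains moved to -3.10 for C1qa, -2.85 for C1qb and -2.96 for C1qc.

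**Figure D2:**
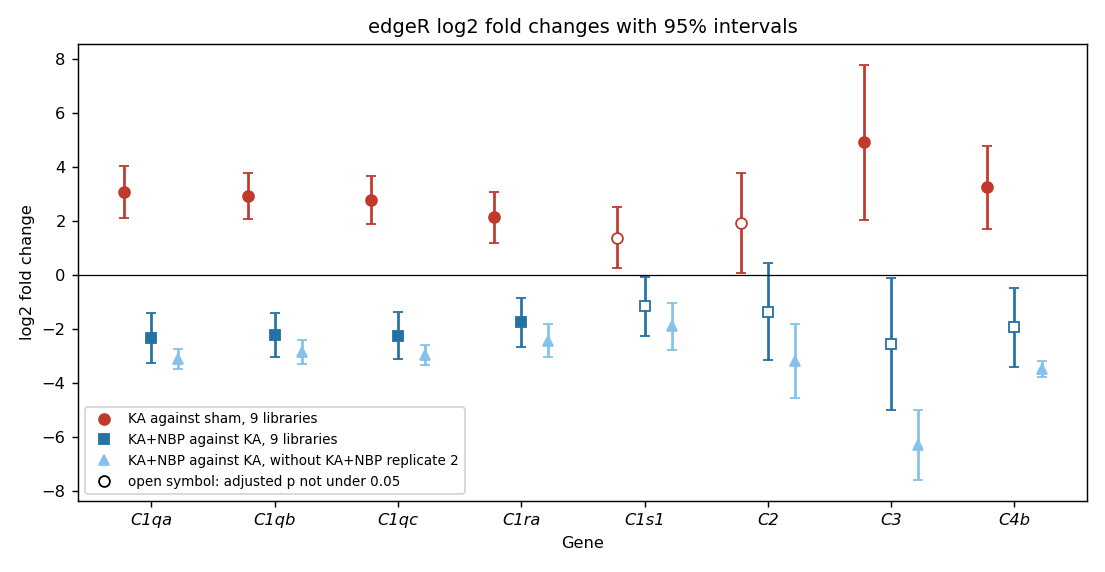
Log2 fold change of each of the 8 genes from edgeR, with its 95% interval. Shown are KA against sham with all 9 libraries, and KA+NBP against KA with all 9 libraries and without KA+NBP replicate 2. With all 9 libraries the intervals are widest for C3, and its KA+NBP against KA value moves from -2.56 to -6.30 when that library is left out, against -2.34 to -3.10 for C1qa.

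Against sham, none of the 8 genes was called in KA+NBP, where 0% of all tested genes was called by edgeR, 248 genes (1.68%) had an unadjusted p under 0.05, and DESeq2 and limma called 0 of all genes. None of the 8 had an unadjusted p under 0.05 either, and the ranges of the groups overlapped for each. The log2 fold changes, KA+NBP against sham, ran from 0.21 for C1s1 to 2.34 for C3, with 1.3 for C4b. Without KA+NBP replicate 2 they ran from -1.40 for C3 to 0.09 for C1qb, and 7 of the 8 changed sign, again with none called. With this spread, equality with sham was not shown for any of them.

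The distance of KA+NBP replicate 2 from sham differed between the 8 genes. On a scale of log2 CPM where the sham mean is 0 and the KA mean is 100, that library stood at 52.1 for C1qa, 50.2 for C1qb, 49.1 for C1qc and 56.4 for C1ra. It stood at 77.6 for C4b, 79.3 for C1s1, 80.1 for C3 and 101 for C2. KA+NBP replicates 1 and 3 stood between -72.1 and 14.2 over the 8 genes. This describes 1 library with no test. The positions of C1s1 and C2 carry little weight, since sham replicate 3 stood at 53.9 for C1s1 and 49.0 for C2, and KA replicate 3 at 58.6 for C2.

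**Figure D3:**
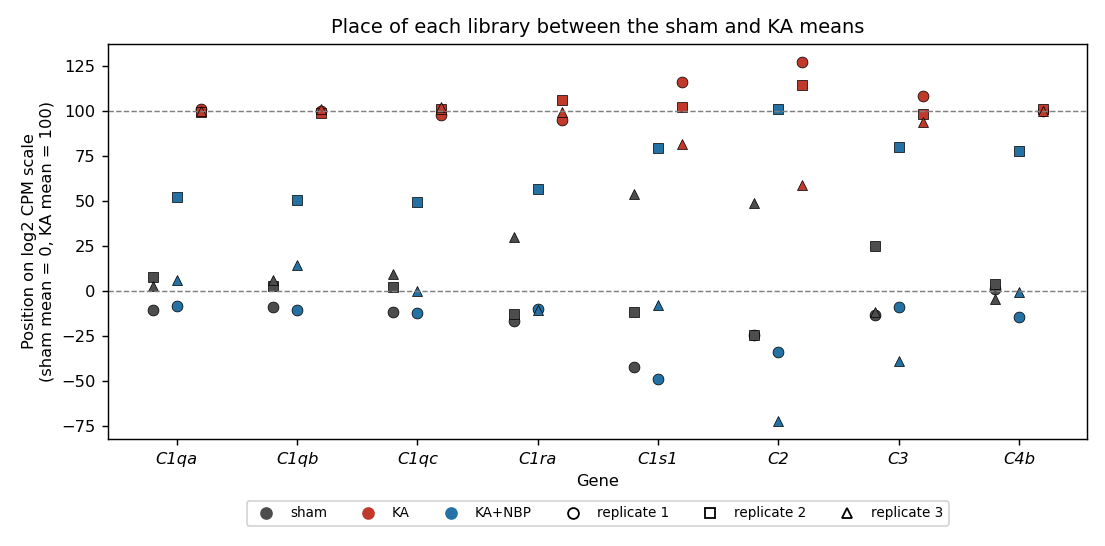
Position of each KA+NBP library for each of the 8 genes, on a scale of log2 CPM whose ends are the means of sham (0) and KA (100). Replicate 2 lies at 49.1 to 101 and replicates 1 and 3 at -72.1 to 14.2.

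The genes kept different proportions to each other in the groups. By TPM, C1qc was highest in sham with C1qa and C1qb next, their ranges overlapping, and C4b lay clearly below them. C1ra, C1s1, C3 and C2 followed, with overlapping ranges between neighbours. In KA the order was C1qa, C1qc, C1qb, C4b, C3, C1ra, C1s1 and C2, and no neighbours overlapped except C1s1 and C2, so C3 stood above C1ra. In KA+NBP all neighbours in the order overlapped. C1qc made up 35.4 to 39.4% of the summed C1q TPM in sham and 32.4 to 34.5% in KA, without overlap, and C1qa 29.6 to 34.5% and 34.4 to 36.1%, with overlap. The ratio of C1ra to C1s1 TPM was 1.49 to 1.98 in sham and 2.11 to 3.22 in KA. The ratio of C4b to C3 TPM was 7.89 to 32.3 in sham, 3.25 to 5.47 with KA, and 19.5, 6.01 and 77.1 in KA+NBP replicates 1 to 3.

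Some of these genes have near copies that share sequence. Of the 50-base windows of the GENCODE M21 transcripts, 35.2% of those of C4b also occurred in C4a, 48.0% of those of C1ra in C1rb, and 24.3% of those of C1s1 in C1s2, while the C1q chains shared none. No gene of the deposited table had the symbol C4a, so the counts of C4b are uncertain as to which copy gave them. C1rb held 1.34 estimated counts in all 9 libraries, and C1s2 stood at 0.190 to 0.920 TPM, both below the filter. C1ra and C1s1 each had a fractional count in 1 library, and the other members in none.

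Markers of several cell types moved with the complement genes. Their counts are to be read against the 19.0% of all tested genes called higher and 14.6% called lower in KA. Of 12 microglia markers 11 were called higher in KA against sham by edgeR, with a median log2 fold change of 1.59, and their summed TPM was 483 to 566 in sham, 1645 to 1716 with KA and 433 to 929 in KA+NBP. Among them Tmem119 rose by 1.25 and P2ry12 had a log2 fold change of 0.60 (edgeR adjusted p = 0.185). Of 10 astrocyte markers 9 were called higher, with a median of 0.79, and their summed TPM was 2585 to 2839 in sham, 7471 to 8848 with KA and 2509 to 5670 in KA+NBP, where Gfap, the astrocyte filament protein, rose by 3.82 in KA and Aldh1l1 by 0.88. Of 8 fibroblast and meningeal markers 2 were called higher, and their summed TPM was 161 to 199 in sham, 407 to 449 with KA and 143 to 296 in KA+NBP. Of 5 tested macrophage and leukocyte markers 0 were called in KA, 1 had an unadjusted p under 0.05, DESeq2 called 0 and limma 1, and the summed TPM of all 10 was 13.6 to 41.0 in sham, 14.7 to 25.0 with KA, and 1.65, 31.3 and 4.04 in KA+NBP replicates 1 to 3. Without KA+NBP replicate 2, edgeR called 3 of the 5 tested macrophage and leukocyte markers and 7 of the 8 fibroblast and meningeal markers higher in KA. It called 4 of the 5 and 7 of the 8 lower in KA+NBP than in KA. That fit called 24.8% of all genes tested in it higher in KA. It also called 12 microglia markers, 7 of 8 endothelial and 2 of 8 choroid plexus markers higher in KA, the last near that share. With all 9 libraries, 7 of 8 mural, 5 of 8 endothelial, 4 of 6 oligodendrocyte precursor and 1 of 8 oligodendrocyte markers were also called higher in KA. There 4 of 10 neuron markers and 1 of 8 choroid plexus markers were called lower. In KA+NBP against KA, where 12.7% of all tested genes were called lower and 10% higher, 11 microglia, 6 astrocyte, 6 mural, 3 oligodendrocyte precursor, 2 fibroblast and meningeal and 1 endothelial markers were called lower, and 3 neuron and 1 choroid plexus markers higher. Without KA+NBP replicate 2, 23.6% of all genes tested in that fit were called lower. There 12 microglia, 9 astrocyte, 8 mural and 7 endothelial markers were called lower. So were 4 oligodendrocyte precursor, 3 choroid plexus, 2 oligodendrocyte and 2 neuron markers, while 4 neuron and 1 choroid plexus markers were called higher. The share of all genes called higher in that fit is not reported here. The part of cell numbers in the complement results was not tested.

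Set against the markers of the same library, the C1q chains, C4b and C3 were highest in KA. The mean log2 CPM of the C1q chains minus that of the 12 microglia markers was 0.51, 0.70 and 0.90 in sham, 2.09, 1.97 and 2.13 with KA, and 0.48, 1.48 and 1.24 in KA+NBP. The KA libraries lay above all others, and KA+NBP replicates 2 and 3 lay above the sham range. The log2 CPM of C4b minus the mean of the 10 astrocyte markers was -1.45, -1.52 and -1.62 in sham, 0.65, 0.58 and 0.54 with KA, and -1.93, 0.21 and -1.58 in KA+NBP. For C3 that difference was -6.46, -4.67 and -6.37 in sham, -1.32, -1.96 and -2.17 with KA, and -6.22, -2.49 and -7.86 in KA+NBP. Against the mean of the 8 fibroblast and meningeal markers, C1ra was also highest in KA, at -1.96, -1.87 and -1.46 in sham, -1.0, -0.92 and -0.49 with KA, and -1.49, -1.63 and -1.67 in KA+NBP. C1s1 and C2 were not: for C1s1 that difference was -2.81 to -1.93 in sham and -2.34 to -1.98 in KA, and for C2 it was -3.55 to -2.66 in sham and -3.02 to -2.15 in KA, the groups overlapping for both. All these differences set a gene against a list and do not assign the transcripts to a cell type.

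**Figure D4:**
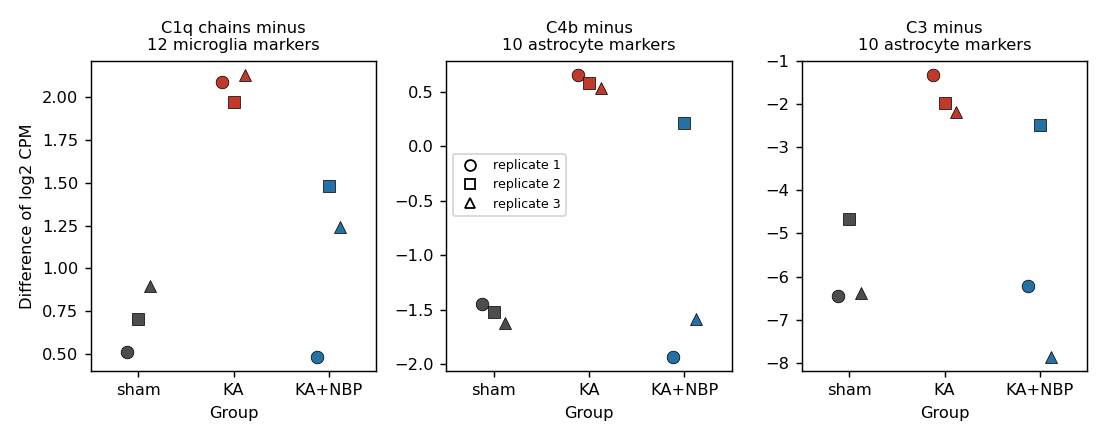
Difference of log2 CPM within each library between the C1q chains and 12 microglia markers (left), and between C4b (middle) or C3 (right) and 10 astrocyte markers. Points are libraries by group, their shape giving the replicate number. KA libraries lie highest in each panel, at 1.97 to 2.13 for the C1q chains.

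The other complement genes moved unevenly. Of all tested genes, edgeR called 19.0% higher and 14.6% lower in KA, and 45.4% had an unadjusted p under 0.05. Without KA+NBP replicate 2 it called 24.8% higher. In either direction DESeq2 called 5308 genes and limma 5546. Counts in such short lists are to be read against these. Of 4 tested lectin pathway genes edgeR called 0 in KA against sham, with 1 at an unadjusted p under 0.05, and DESeq2, limma and edgeR without KA+NBP replicate 2 each called 1. The gene with the smallest p was Colec12, a scavenger collectin (log2 fold change 1.18, edgeR adjusted p = 0.0522), followed by Masp1 (0.25), Masp2 (0.30) and Colec11 (0.19). Of 2 tested alternative pathway genes edgeR called 0, with 0 at an unadjusted p under 0.05 and 0 by DESeq2 and limma: Cfb, which encodes factor B, had a log2 fold change of 0.61 and Cfp, which encodes properdin, of -0.16. Cfd and Mbl2 had no counts in any library, which allows up to 0.183 to 0.191 CPM in each. Of 3 tested terminal pathway genes 1 rose, Hc, which encodes C5, by 2.31 (edgeR adjusted p = 0.0340) at levels of only 0.0600 to 0.470 TPM, and limma called 0. The others, C7 and C8g, had log2 fold changes below 0 and were not called, and the median of the list was -0.59. C7 stood at 0.70 to 0.78 TPM in sham and 0.40 to 0.49 with KA, without overlap but at low counts.

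Of 10 tested receptors 9 rose in KA, with a median log2 fold change of 1.52, and 7 were called lower in KA+NBP than in KA, against 19.0% and 12.7% of all tested genes. Itgax, a subunit of complement receptor CR4, stood at 0.0400, 0.450 and 0.290 TPM in sham, 27.6, 22.4 and 21.0 with KA, and 0.250, 4.87 and 0.160 in KA+NBP, a log2 fold change of 6.49 in KA (edgeR adjusted p = 0.00305). Itgam, a subunit of complement receptor CR3, rose by 1.67, C3ar1, the receptor of C3a, by 3.16, and C5ar2, a receptor of C5a, by 1.37. Of 14 tested regulators 5 were higher and 2 lower in KA, with a median of 0.10, against 19.0% and 14.6% of all tested genes. Serping1, the inhibitor of C1r and C1s, stood at 8.84, 10.2 and 13.6 TPM in sham, 66.2, 61.6 and 56.8 with KA, and 7.35, 38.8 and 6.34 in KA+NBP. It rose by 2.57 (edgeR adjusted p = 0.0101) and was lower in KA+NBP than in KA by a log2 fold change of -1.91 (edgeR adjusted p = 0.0371). Clu, or clusterin, an inhibitor of the terminal complex, rose by 1.24 and Susd4 by 0.57. The regulators called lower were Csmd3, with a log2 fold change of -0.58, and Cd46, named after its values were seen, with -0.82.

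Over the 9 libraries, which fall into groups, Pearson's r of log2 CPM between pairs of the 8 genes ran from 0.809 for C1qb with C2 to 0.997 for C1qa with C1qb. The non-member genes most like a member among 14744 compared were found by the same measure and are a description of libraries that share the group differences. For C1qa the most like was Tyrobp, a signalling adaptor of microglial receptors (r = 0.998), for C1qb Fermt3 (0.997), and for C1qc Tcn2 (0.999), followed by Irf8, a myeloid transcription factor (0.998). For C1ra it was Stab1 (0.993) and for C2 Islr (0.991), followed by Bmp7 (0.987) and Igf2 (0.981). For C3 it was Erap1 (0.995) and for C4b Lamp2 (0.996), with Gfap also among its closest (0.995). Tyrobp, Fermt3, Tcn2, Irf8, Stab1, Erap1, Lamp2 and Gfap were called higher in KA by edgeR, while Islr had a log2 fold change of 0.91 (edgeR adjusted p = 0.0582), as C2 too missed the threshold.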

How the data were processed

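Hippocampal RNA-seq libraries, 3 each of sham, KA and KA+NBP mice, were compared. The authors deposited estimated counts, TPM and FPKM per gene in 1 table, and the submitters' processing notes name Bowtie2, RSEM 1.3.1, DESeq2 1.4.5 and GRCm39 with no roles. FPKM was not used. Estimated counts, of which 5.65 to 6.62% per library were fractional, were rounded. In R 4.3.3, edgeR 4.0.16 (filterByExpr, TMM, quasi-likelihood fit, 1 mean per group over 9 libraries, Benjamini-Hochberg over 14752 genes) was the main test, with DESeq2 1.42.0 and limma 3.58.1 (log2(TPM + 1) and log2(TPM + 0.1)) as alternatives, beside the 6 libraries of a comparison alone, leaving out each library, and a replicate block. TPM served for levels, and log2 CPM (prior count 2) for positions and correlations. The fit was tested on simulated data with the same spread for every gene and no library standing apart. That test therefore does not cover the effect of KA+NBP replicate 2. SE was taken from the fold change and its F statistic.

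The members and all lists were chosen with earlier results of these data known. Named were the 8 members, up to 4 genes per complement list with the smallest p in KA against sham, Serping1, C1rb, C1s2 and C4a, the 3 genes most correlated with each member, and the first 2 genes of each marker list. Of these, the genes a result turns on are printed, and some are not reported here. The labels do not say what a replicate number shares across groups. Deviations of same-numbered sham and KA+NBP libraries correlated at 0.301, 0.332 and 0.126, and this pairing, which rests on the values alone, changed no call between those groups. Same-numbered pairs with KA libraries ran from -0.045 to 0.0447, and differently numbered ones from -0.102 to 0.0798. Differently numbered pairs of sham and KA+NBP ran from -0.31 to 0.19, the highest lying above the same-numbered 0.126. Each library is 1 of 3 mice drawn at random from its group, per the series' design text. Counting limits cover counting error only.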

Additional observations from a re-analysis of the deposited data

How the results depend on the processing

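For KA against sham, the log2 fold changes of the 8 genes kept their sign in every alternative run, and for KA+NBP against KA likewise. With each library left out in turn, the members called higher in KA numbered 5 to 8 and all genes called 2721 to 6700. For KA+NBP against KA, the members called lower numbered 3 to 8 and all genes called 1295 to 6355, while the 6 libraries of those groups alone gave 1065 genes. For KA+NBP against sham 0 to 1 genes were called, the 1 being Phyhd1 without KA+NBP replicate 1. In that comparison, with each library left out in turn, the log2 fold change ran from -0.034 to 1.05 for C1qa, -0.18 to 0.83 for C1qc, -0.31 to 0.78 for C1ra, -0.53 to 0.73 for C1s1, -1.28 to 1.25 for C2, -1.40 to 3.31 for C3 and -0.23 to 1.74 for C4b. The lowest of each was without KA+NBP replicate 2. The sign also turned for C1s1 without sham replicate 1 (-0.059) and for C2 with limma on log2(TPM + 0.1) (-0.045). None of these values passed the test. The cause was not tested.

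With the replicate number as a block, the 6 libraries of KA+NBP and KA gave 0 called members and 0 called genes, and the C1q chains had an edgeR adjusted p of 0.0821. In the 9 libraries the block gave 6 members called lower and 3189 genes. For KA against sham it gave 6 members called higher and 4784 genes in the 9 libraries, and 8 members and 6202 genes in the 6. Numbers of KA libraries did not pair with the others. DESeq2 gave no adjusted p for C4b in any of the 3 comparisons, so its counts of members rest on the other 7 genes. C1s1 passed in KA against sham with DESeq2 (adjusted p = 0.0284) and limma on log2(TPM + 1) (0.0489). With 3 libraries per group and KA+NBP replicate 2 among them, wide intervals limit what the missed thresholds show, and C2 rests on 6 to 113 counts per library.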

Other observations

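Sham replicate 3 was the highest sham library for several complement genes at once. Cfb, which encodes factor B of the alternative pathway, stood at 0.200, 0.500 and 2.33 TPM in sham replicates 1 to 3. C1ra, C1s1 and C2 were likewise highest in that library, while C4b was lowest there, at 30.2 TPM, and C3 was highest in sham replicate 2. The summed macrophage and leukocyte markers stood at 41.0 TPM in that library against 13.8 and 13.6 TPM in the other sham libraries, of which S100a8 alone reached 27.4 TPM in sham. The mean log2 CPM covers only the 5 markers of that list that passed the filter, without S100a8. By that mean, sham replicate 3 (0.22) lay below all KA libraries (0.81 to 1.09). The part of these cells in those levels was not tested.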
